A study of Mus musculus with 40 samples.

Results

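Most Trim genes encode proteins built from a RING domain, which passes ubiquitin to other proteins, a B-box and a coiled coil. Members were chosen by symbol, as genes named Trim with a number and an optional letter and with a count sum of 20 or more over all mice, and 62 of the 28449 genes that reached this sum were members. Of 68 rows with such a symbol, 6 (Trim42, Trim50, Trim52, Trim54, Trim60 and Trim61) fell below it. The family was selected on a measured value, because Trim25 was among the genes raised most after H2A.Z deletion. Values of deleted against control mice are therefore a description, and no p-value of a member is printed for them. Calls in that comparison only mark an adjusted p-value under 0.05, and counts of called members there support nothing. Of the 62 members, 46 had a mean of at least 1 CPM (counts scaled to the size of the library) in at least 1 group, and 16 were under 1 CPM in every group.

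The family is best known for innate immunity. TRIM25 acts in the pathway of RIG-I, a sensor of viral RNA in the cytosol, TRIM21 binds antibodies inside cells, and TRIM5 acts on retroviral capsids. Type I interferon induces many of these genes through short promoter sequences called interferon-stimulated response elements. Other members work in neurons, where TRIM2 and TRIM3 act on axons and synapses, TRIM9 on axon branching and TRIM46 on the axon initial segment, and TRIM28 (KAP1) silences transposable elements.

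H2A.Z is a variant of histone H2A encoded by 2 genes, H2az1 and H2az2. RNA was sequenced from the hippocampus of 40 mice, floxed for both genes, with 1 library per mouse, after injection of virus. Control mice (Myc, whose genotype label reads WT) received a vector for the 3xMyc tag and no Cre. KO mice received Cre driven by the synapsin promoter, which is active in neurons, along with 3xMyc. Replacement mice received the same Cre and a vector that expresses 3xMyc-H2A.Z.1 from the CMV promoter. Its protein was unmutated (WT), carried alanine in place of lysines of the N-terminal tail (KA, which cannot be acetylated) or carried glutamine there (KQ, which mimics acetylation). The ages are not given in the sources used here. Females numbered 3 Myc, 4 KO, 4 WT, 4 KA and 3 KQ, and males 4 Myc, 4 KO, 5 WT, 4 KA and 5 KQ. Every group but Myc received the Cre vector as a second virus, and the Myc mix held PBS in its place. The study states that PBS served to match titer and volume. Loss of H2A.Z, presence of Cre and the second vector therefore cannot be told apart in comparisons with Myc.

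Libraries held 24342921 to 45982772 counts (median 36417112). Levels are CPM scaled by the TMM method, and differences are log2 fold changes with their standard error (SE) from edgeR's quasi-likelihood test. A gene was called when its adjusted p-value over all 28449 genes was under 0.05, at any fold change. The targeted genes were not called lower in bulk tissue. The study's own mRNA checks reported lower H2afz (H2az1) and H2afv (H2az2) in KO mice. H2az1 had a mean of 32.2 CPM in Myc and 31 CPM in KO females, and 32.8 CPM in Myc and 31.5 CPM in KO males. H2az2 had 23.2 CPM in Myc and 28.1 CPM in KO females, and 23.2 CPM in Myc and 25.5 CPM in KO males. Counts over a whole gene do not check its floxed part. KO, the study's name for the group, is used for libraries whose titles read H2AZ_KD with no replacement. In bulk tissue fewer cells of a type and less RNA per cell cannot be told apart.

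Cell type markers moved with deletion. All 9 microglial markers were called higher in both sexes, with sums of 363 to 597 CPM in Myc and 1644 to 2866 CPM in KO females and of 364 to 487 CPM in Myc and 1680.1 to 3326 CPM in KO males. All 8 T cell markers were also called higher, with sums of 1.79 to 5.1 and 19.9 to 123 CPM for Myc and KO females and of 2.1 to 2.56 and 47.4 to 176 CPM for Myc and KO males. Of 8 neuronal markers 8 were called lower in females and 7 in males, with sums of 11156 to 11363 and 4454 to 7835 CPM for females and of 11100.0 to 11982 and 5279 to 8924 CPM for males. Of 6 astrocyte markers 5 were called higher in each sex, of 5 endothelial markers 5 in females and 3 in males, and of 5 oligodendrocyte markers 2 in females and 1 in males. All 6 choroid plexus markers were called higher in females, where KO sums ran from 57.8 to 3944 CPM. In males edgeR called 0 of these 6, also at an unadjusted p under 0.05. Of all genes, 18.1% were called higher and 16.5% lower in females, and 17.2% and 14.4% in males. No marker of these lists was at 0 throughout a group. The part of other cells in the Trim results was not tested.

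Sequences at transcription starts are shown because the letters of interferon-stimulated response elements occur at several raised members, though not at most of them. Binding to these sequences was not measured. RefSeq promoter windows of 300 bases (250 before and 50 after a start, from a GRCm38.p6 table) were found for 53 of the 68 symbols, and 66 of their 67 windows were placed in GRCm39 by exact match. The letters GAAANNGAAA, as in interferon-stimulated response elements, were searched on both strands. They were in 3.44% of all 32851 windows and in 10 of the 67 windows of the family (14.9%), which belong to 9 members. Sites are given as 30 bases of the strand that carries these letters, in GRCm39, with the matches in capitals, which overlap each other in Trim21 and Trim26.
Trim21 (chr7:102214654-102214683, minus strand): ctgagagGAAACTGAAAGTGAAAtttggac
Trim30a (chr7:104114417-104114446, plus strand): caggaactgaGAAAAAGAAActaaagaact
Trim34a (chr7:103893664-103893693, minus strand): gcagagaaaaGAAACTGAAActccaaacca
Trim12a (chr7:103964673-103964702, plus strand): ctctggaaatGAAACAGAAAccacaactct
Trim12c (chr7:104002566-104002595, plus strand): agctggaaatGAAACAGAAAccacaactct
Trim26 (chr17:37147871-37147900, minus strand): ggcccgaGAAAAGGAAAGTGAAAtcggaag
Trim2 (chr3:84120098-84120127, plus strand): ctgtcttagaGAAAAGGAAAccaaagctga
The site of Trim30d (chr7:104157078-104157107) has the same bases as that of Trim30a, and the site of Trim5 the same as that of Trim12a. Of the 9 members with a site, 8 were called higher after deletion in both sexes, and Trim2 was called lower. Of 39 tested members that had a window without a site, 10 were called higher and 7 lower in both sexes. Over all genes, 13.5% were called higher and 11.3% lower in both sexes. The shares among all genes with a site are not given here. Trim5, Trim12a, Trim12c, Trim30a, Trim30d and Trim34a are neighbours in the same cluster on chromosome 7, so the members with a site are not separate cases. A match is a description of letters, and the counts of called members use the comparison that proposed the family. Whether a site goes with a rise was not tested. The letters TTCNNNGAA, of the kind bound by STAT dimers, were in 8.3% of all windows and in 10.4% of the family's.

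CG pairs at the promoter were counted by call, as a description with no test, and the ranges of raised and lowered members overlapped. The 18 members raised in both sexes that had a window held a median of 3 CG pairs in their richest window, with a range of 0 to 44. The 8 lowered members with a window held a median of 20, with a range of 13 to 46, and all windows a median of 7. Trim25 did not share the low count of the cluster genes, with 18 CG pairs, and Trim47 and Trim59, both raised, had 29 and 44. Trim38 and Trim31, with 1 and 3 CG pairs, were called in neither sex. Their means over all mice were 0.19 and 0.015 CPM, where few reads limit a call. The 120 bases that end before the annotated start are shown for Trim25, which proposed the family, and for Trim37, the member called lower in both sexes with the largest change, with CG pairs in capitals (GRCm39).
Trim25 (chr11:88890082-88890201, plus strand): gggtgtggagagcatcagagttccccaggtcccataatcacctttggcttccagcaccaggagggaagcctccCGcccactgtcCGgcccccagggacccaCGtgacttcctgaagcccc
Trim37 (chr11:87017725-87017844, plus strand): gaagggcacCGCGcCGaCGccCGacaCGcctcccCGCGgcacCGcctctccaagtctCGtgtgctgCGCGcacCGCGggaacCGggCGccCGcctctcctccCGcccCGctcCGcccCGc
This stretch held 3 CG pairs for Trim25 and 21 for Trim37, and their whole windows held 18 and 41.

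**Figure D1:**
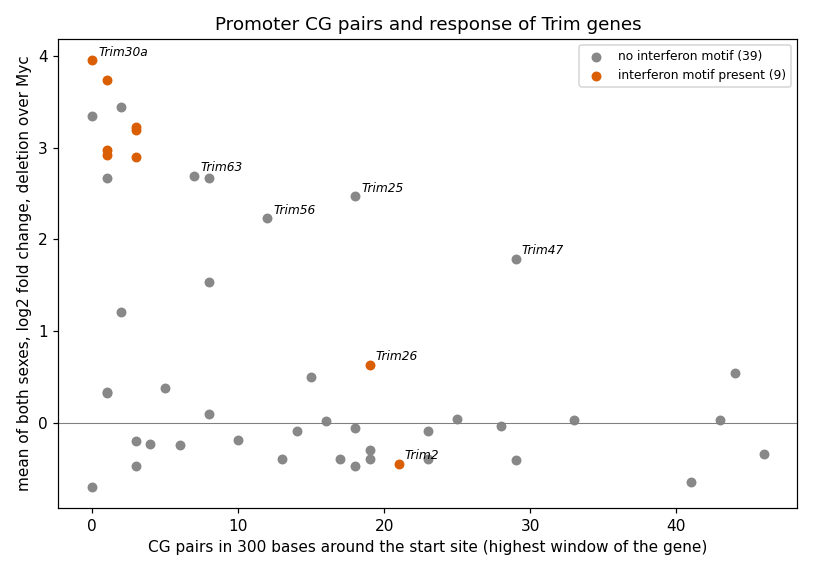
Highest number of CG pairs in a 300-base promoter window (x axis) and mean log2 fold change of deleted over Myc mice in both sexes (y axis) of the 48 tested Trim genes with a window, orange where a window holds GAAANNGAAA. The 9 orange genes include 7 with at most 3 CG pairs and large positive changes, and Trim26 and Trim2 with 19 and 21 CG pairs. The Trim2 window that holds these letters is another one, with 2 CG pairs.

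Which Trim genes changed when H2A.Z was deleted? In females 22 members were called higher (35.5% of 62, against 18.1% of all genes) and 12 lower (19.4%, against 16.5%). In males 21 were higher (33.9%, against 17.2%) and 11 lower (17.7%, against 14.4%). Over the members the median log2 difference was 0.22 for females and 0.02 for males, against 0.00 and 0.03 over all genes. The sexes are different mice, and 20 members were higher in both (32.3%, against 13.5% of all genes) and 11 lower in both (17.7%, against 11.3%). None was called in opposite directions, and 27 were called in neither sex. The 4 mice above 1000 CPM of the choroid plexus gene Ttr were KO females 14 and 33, WT female 20 and KQ female 17. Without them, 20 members were higher and 10 lower in females. Fitted on Myc and KO mice alone, 18 were higher and 6 lower in females, and 20 and 6 in males. The lowered members numbered 7 in females without Myc mouse 31 and 7 in males without KO mouse 4.

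**Figure D2:**
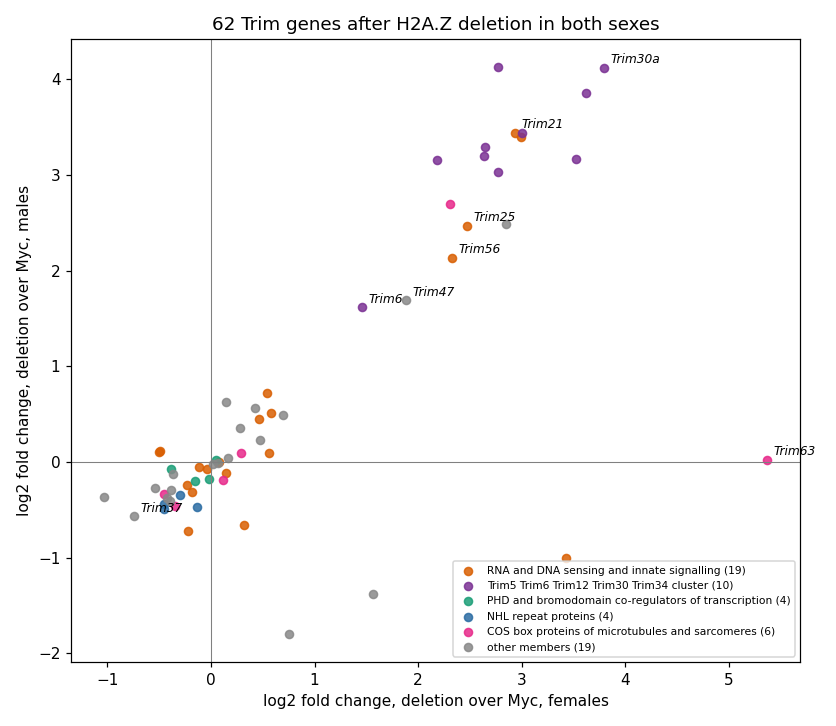
Log2 fold change of deleted over Myc mice in females (x axis) and in males (y axis) for the 62 Trim genes, coloured by role. The 10 genes of the chromosome 7 cluster and Trim14, Trim21, Trim25, Trim47, Trim56 and Trim69 lie at the upper right. The NHL repeat genes lie below 0 in both sexes.

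Trim25 was high in every KO mouse. In females Trim25 had 4.73, 5.81 and 6.14 CPM with Myc and 26.2, 28.6, 31.9 and 37 CPM with KO. In males Trim25 had 5.4, 5.5, 6.41 and 7.07 CPM with Myc and 26.9, 30.1, 39 and 39.2 CPM with KO. No KO mouse overlapped a Myc mouse, and the log2 fold changes, which proposed the family, were 2.47 (SE 0.18) for females and 2.47 (SE 0.16) for males. Trim25 lies at chr11:88890202-88911122 of GRCm39 and shares no exon base with another annotated gene.

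Replacement mice lay between Myc and KO mice for Trim25. In females the values were 13.4, 14.2, 14.6 and 15.1 CPM with WT, 14.3, 14.6, 14.6 and 15.6 CPM with KA and 11.5, 13.1 and 17.7 CPM with KQ. In males they were 11.5, 11.6, 12.4, 12.6 and 17.2 CPM with WT, 11.3, 11.9, 15 and 19.4 CPM with KA and 10.9, 11.3, 11.9, 13.7 and 15.6 CPM with KQ. Every replacement mouse was above every Myc mouse and below every KO mouse of its sex. KA and KQ mice took no part in proposing the family, and their Trim25 levels overlapped. The KA minus KQ difference was 0.07 (SE 0.17, adjusted p = 1) for females. It was 0.18 (SE 0.15, adjusted p = 0.686) for males.

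**Figure D3:**
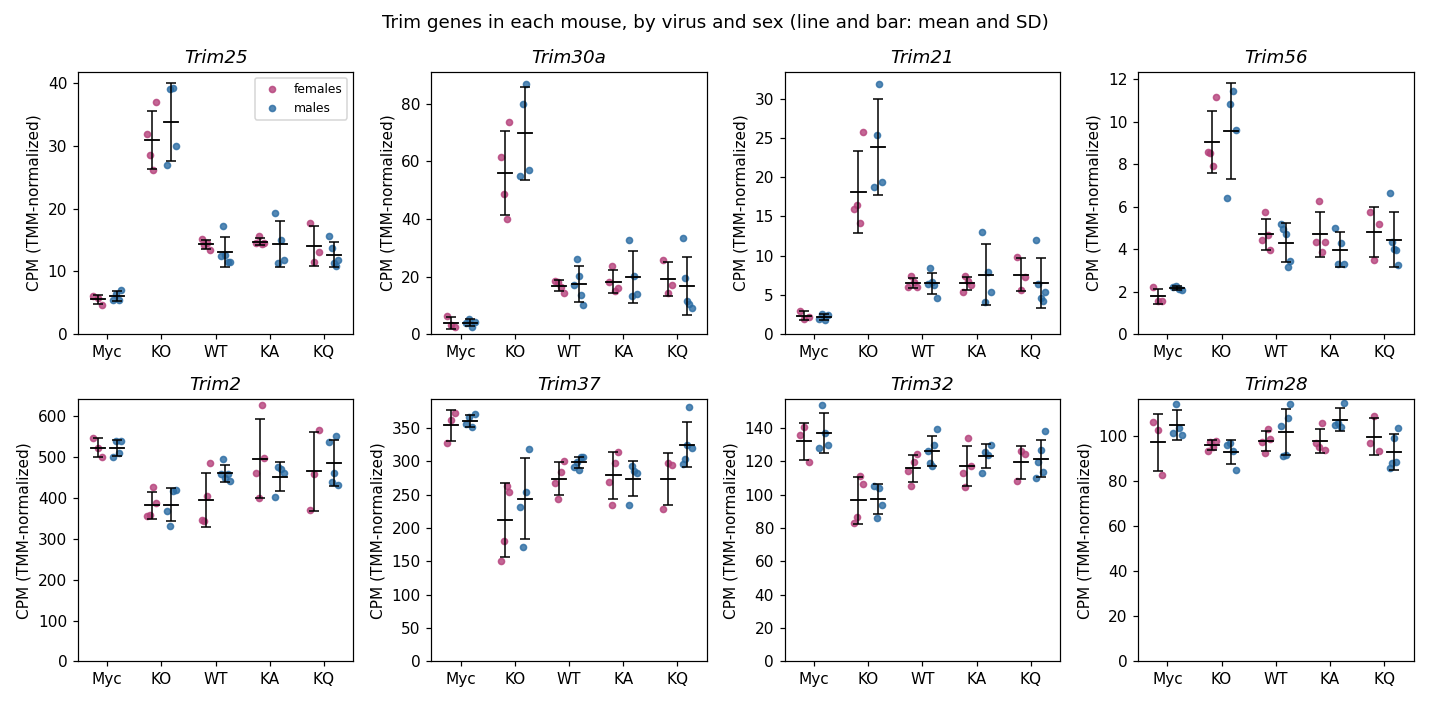
CPM (y axis, from 0) of 8 Trim genes in each mouse (points, by sex) against virus (x axis), with the group mean and SD. Trim25, Trim30a, Trim21 and Trim56 are highest in KO mice and intermediate on average in WT, KA and KQ mice, and Trim2, Trim37 and Trim32 are lower in every KO mouse than in every Myc mouse of its sex.

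Members that act in RNA and DNA sensing were split. Of these 19 genes, 7 were called higher in both sexes (Trim14, Trim21, Trim25, Trim26, Trim56, Trim59 and Trim65), against 13.5% of all genes. In both sexes 2 were called lower (Trim8 and Trim35), against 11.3% of all genes. The other 10 were called in neither sex. Of these, Trim10, Trim15, Trim29, Trim31, Trim38 and Trim40 had means of 0.015 to 0.49 CPM over all mice, where few reads limit a call. The median log2 difference of the 19 genes was 0.32 for females and 0.10 for males. In females Trim21, the receptor for antibodies in the cytosol, had 1.9, 2.13 and 2.97 CPM with Myc and 14.1, 16, 16.4 and 25.8 CPM with KO. In males Trim21 had 1.85, 1.89, 2.49 and 2.57 CPM with Myc and 18.8, 19.4, 25.4 and 31.9 CPM with KO. The groups did not overlap in either sex, and the log2 fold changes of Trim21 were 2.94 (SE 0.35) for females and 3.44 (SE 0.31) for males.

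In females Trim14, an adaptor in antiviral signalling at mitochondria, had 0.949, 1.06 and 1.45 CPM with Myc and 6.69, 8.14, 10.7 and 11.7 CPM with KO. In males Trim14 had 0.528, 0.804, 1.29 and 1.71 CPM with Myc and 7.69, 9.44, 11.5 and 17.1 CPM with KO. All KO mice were above all Myc mice, with log2 fold changes of 2.99 (SE 0.35) for females and 3.40 (SE 0.32) for males. Of the exon bases of Trim14, 28.3% lie within other annotated genes, Nans among them, and whether counting used strand is not given in the sources used here.

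In females Trim56, which acts in the STING pathway of DNA sensing, had 1.58, 1.58 and 2.2 CPM with Myc and 7.9, 8.52, 8.59 and 11.2 CPM with KO. In males Trim56 had 2.08, 2.14, 2.21 and 2.29 CPM with Myc and 6.41, 9.59, 10.9 and 11.5 CPM with KO. The groups of Trim56 were apart in both sexes, with log2 fold changes of 2.33 (SE 0.24) for females and 2.13 (SE 0.22) for males.

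Trim26, Trim59 and Trim65, which were chosen after their values were seen, had smaller rises. Trim26, which acts on IRF3, had 21.4 to 23 CPM in Myc and 30.1 to 35.3 CPM in KO females, and 19.8 to 24.9 CPM in Myc and 31.2 to 41.6 CPM in KO males. Trim26 did not overlap in either sex, and its log2 fold changes were 0.54 (SE 0.11) for females and 0.73 (SE 0.097) for males. Those of Trim59 were 0.57 (SE 0.19) for females and 0.51 (SE 0.17) for males. Those of Trim65, which acts on MDA5, were 0.46 (SE 0.15) for females and 0.45 (SE 0.14) for males. The female groups of Trim59 and of Trim65 overlapped. Trim59 lost its female call without Myc mouse 11 (0.48) or 31 (0.54) or KO mouse 13 (0.44) or 14 (0.50) and its male call without KO mouse 4 (0.49) or Myc mouse 22 (0.44). Trim65 lost its female call without Myc mouse 11 (0.43) or 31 (0.42) or KO mouse 13 (0.38) or 14 (0.41).

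Trim35 and Trim8 were lower by small amounts. Trim35 had 116, 141 and 146 CPM in Myc and 112, 116, 121 and 122 CPM in KO females, which overlapped, and 139.5 to 153 CPM in Myc and 103 to 124 CPM in KO males, which did not. Its log2 fold changes were -0.19 (SE 0.073) for females and -0.32 (SE 0.068) for males. Those of Trim8 were -0.23 (SE 0.085) for females and -0.24 (SE 0.079) for males, with groups that overlapped in both sexes. Trim35 lost its female call without Myc mouse 11 (-0.15) or 31 (-0.12) or KO mouse 13 (-0.16) or 14 (-0.18). Trim8 lost its female call without KO mouse 13 (-0.21) or 34 (-0.19) or Myc mouse 31 (-0.12) and its male call without Myc mouse 1 (-0.21) or KO mouse 4 (-0.21). Both female calls were also lost when all genes with a count above 0 were tested, and that of Trim35 without the mice above 1000 CPM of Ttr.

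All tested genes of 1 cluster on chromosome 7 were raised. Trim6, Trim34a, Trim5, Trim12a, Trim34b, Trim12c, Trim30b, Trim30c, Trim30a and Trim30d lie in this order over 289 kb (chr7:103868000-104157107). They are relatives of the antiretroviral gene TRIM5, and the Trim30 genes are rodent members induced in immune cells. All 10 were called higher in both sexes, against 13.5% of all genes. Their median log2 difference was 2.77 for females and 3.25 for males. Trim12b was not analysed here. Microglial and T cell markers were higher in the same mice, and their part in the cluster's rise was not tested.

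In females Trim30a had 2.34, 3.16 and 6.26 CPM with Myc and 40.1, 48.6, 61.5 and 73.5 CPM with KO. In males Trim30a had 2.61, 3.97, 4.29 and 5.2 CPM with Myc and 54.9, 57, 80.1 and 86.8 CPM with KO. Every KO mouse was far above every Myc mouse of its sex, and the log2 fold changes of Trim30a were 3.79 (SE 0.45) for females and 4.12 (SE 0.40) for males.

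Other well-measured cluster genes showed the same order. Trim30d had means of 1.83 CPM in Myc and 23.7 CPM in KO females and of 1.91 and 27.7 CPM for Myc and KO males. Trim12a had 7.36 ± 1.32 CPM (SD, n = 3) in Myc and 46.1 ± 12.6 CPM (n = 4) in KO females, and 6.36 ± 1.18 CPM (n = 4) and 58.5 ± 13.4 CPM (n = 4) for males. In each of Trim30d, Trim12a, Trim12c, Trim5 and Trim34a all KO mice were above all Myc mice of their sex. Trim12c had means of 4.24 CPM in Myc and 29 CPM in KO females and of 4.4 and 36 CPM for Myc and KO males. Trim34a had means of 4.51 CPM in Myc and 36.7 CPM in KO females and of 3.93 and 42.6 CPM for Myc and KO males, and Trim5 had means of 1.41 CPM in Myc and 9.01 CPM in KO females and of 1.24 and 12.2 CPM for Myc and KO males.

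Trim34b, Trim30c, Trim6 and Trim30b had few reads, with means of at most 0.261 CPM in Myc mice and of 0.32 to 2.19 CPM in KO mice. Trim30b, which was chosen after its values were seen, had 0, 0.0483 and 0.0852 CPM in Myc and 0.0617, 0.245, 0.354 and 0.619 CPM in KO females, which overlapped, and log2 fold changes of 2.77 (SE 0.77) for females and 4.13 (SE 0.70) for males. Trim6, also chosen after its values were seen, had the smallest change of the cluster, with 1.46 (SE 0.46) for females and 1.62 (SE 0.41) for males, and its male groups overlapped.

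Reads may not be separable between cluster genes that resemble each other. Of the stretches of 50 bases in transcripts of Trim34b, 47.7% also occur in other Trim genes, and the share was 38.7% for Trim34a, 32.1% for Trim12c and 31.8% for Trim5. It was 8.1% for Trim30d, 6.3% for Trim12a and 2.84% for Trim30a, and 0.0336% for Trim25 outside the cluster. The separate levels of Trim34a and Trim34b, and of Trim5 and Trim12c, are therefore uncertain.

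**Figure D4:**
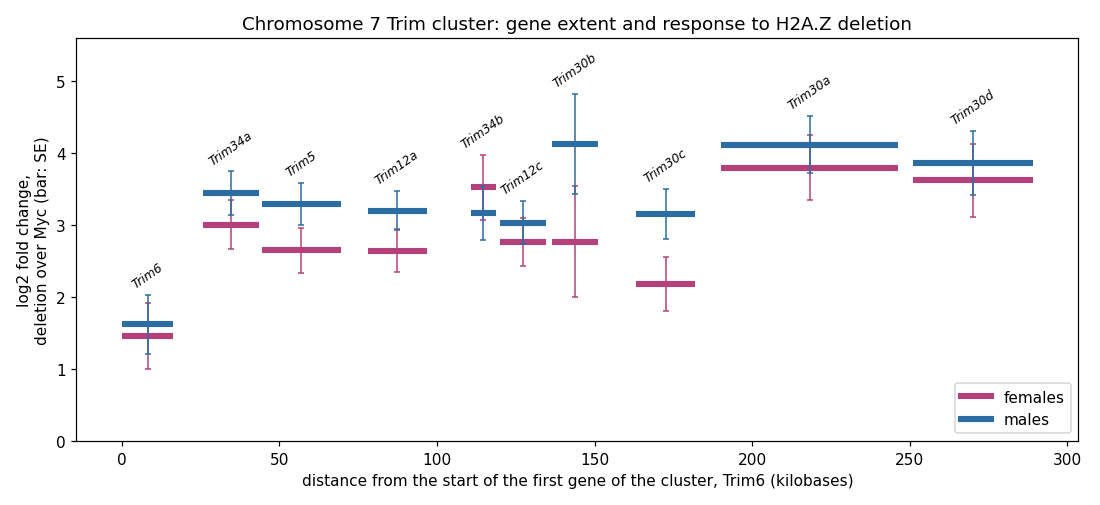
Log2 fold change of deleted over Myc mice (y axis, with SE bars) of the 10 cluster genes against distance from the start of Trim6 in kilobases (x axis), with each horizontal bar drawn over the extent of the gene, by sex. All bars lie above 1, and Trim6 at the left end is the lowest in both sexes.

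All 5 genes of the ISG15 pathway, for which TRIM25 can act as ligase, were called higher in both sexes, against 13.5% of all genes. Over all genes, 18.1% were called higher and 16.5% lower in females, and 17.2% and 14.4% in males. Isg15 itself had 2.94 CPM in Myc and 51 CPM in KO females and 2.93 and 69.1 CPM for males, and Usp18, which removes ISG15, had 1.81 CPM in Myc and 29.8 CPM in KO females and 1.51 and 32.5 CPM for males. Of 12 genes of the RIG-I and MDA5 pathway, 9 were higher and 1 lower in females, and 8 and 1 in males. Ddx58, which encodes RIG-I, had 7.24 CPM in Myc and 52 CPM in KO females and 7.58 and 57.1 CPM for males, while Traf3 was the gene called lower (-0.40, SE 0.13 for females, -0.34, SE 0.12 for males). Of 9 genes of type I interferon receptor signalling 7 were higher in both sexes, among them Stat2 with 30.5 CPM in Myc and 107 CPM in KO females and 31.2 and 154 CPM for males. Irf9, its partner in the complex, had 12.6 CPM in Myc and 68.5 CPM in KO females and 13.7 and 74.6 CPM for males. Of 4 family proteins under other symbols, 2 were higher in females, and 3 were higher and 1 lower in males. Pml (TRIM19) had 9.41 CPM in Myc and 21 CPM in KO females and 9.69 and 26.2 CPM for males.

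The PHD and bromodomain co-regulators Trim24, Trim28, Trim33 and Trim66 had no call. edgeR and DESeq2 each called 0 of 4 in either sex. At an unadjusted p under 0.05 edgeR gave 1 in females (Trim66) and 2 in males (Trim28 and Trim33), all lower, and DESeq2 gave 0 and 2. At that threshold edgeR had 43.1% of all genes in females and 40.2% in males. Trim28, the most abundant, had 82.8, 103 and 106 CPM in Myc and 93.2, 95.3, 97.4 and 98.1 CPM in KO females, which overlapped. In males Trim28 had 100.5, 101, 104 and 114 CPM with Myc and 85, 93.6, 96.1 and 97.2 CPM with KO, which did not overlap. Its log2 fold changes were -0.02 (SE 0.085) for females and -0.17 (SE 0.079) for males. Of its exon bases 67.8% lie within Chmp2a. Of 8 silencing partners of TRIM28, Resf1 and Morc3 were called higher in both sexes, and Cbx5 lower in males. Over all genes, 13.5% were called higher in both sexes and 14.4% lower in males.

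Of the 4 NHL repeat members, Trim2, Trim3 and Trim32 were called lower in both sexes, against 11.3% of all genes. Trim71 was not called, with a mean of 0.86 CPM over all mice, where few reads limit a call. In females Trim2, a ligase whose loss causes axonal neuropathy, had 499.7, 523 and 546 CPM with Myc and 355, 358, 388 and 426 CPM with KO. In males Trim2 had 501, 510.1, 538 and 539 CPM with Myc and 332, 368, 416 and 419 CPM with KO. All KO mice were below all Myc mice, with log2 fold changes of -0.45 (SE 0.13) for females and -0.44 (SE 0.12) for males. Neuronal markers were lower in the same mice, and their part in these results was not tested.

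In females Trim32, a ligase of muscle and neural progenitors, had 119, 136 and 141 CPM with Myc and 82.9, 86.4, 106 and 111 CPM with KO. In males Trim32 had 128, 129.6, 137 and 154 CPM with Myc and 86, 93.9, 104 and 105 CPM with KO. The groups of Trim32 were apart in both sexes, with log2 fold changes of -0.45 (SE 0.10) for females and -0.49 (SE 0.094) for males. Those of Trim3, which acts on postsynaptic scaffolds, were -0.30 (SE 0.090) for females and -0.35 (SE 0.083) for males, also without overlap. Trim3 lost its female call without Myc mouse 31 (-0.23).

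Of the 6 tested COS box members, which bind microtubules or sarcomeres, Trim9 and Trim46 were called lower in both sexes. Over all genes this share was 11.3%. In females Trim9, which acts at axons, had 236, 247 and 258 CPM with Myc and 152, 171, 192 and 204 CPM with KO. In males Trim9 had 227, 243, 243 and 249.9 CPM with Myc and 165, 167, 201 and 230.2 CPM with KO. The male groups of Trim9 overlapped and the female groups did not, with log2 fold changes of -0.46 (SE 0.13) for females and -0.34 (SE 0.12) for males. Trim46 had 55.6 to 64.3 CPM in Myc and 40.6 to 53.3 CPM in KO females, and 58.9 to 62.5 CPM in Myc and 39.8 to 49.8 CPM in KO males, without overlap. Its log2 fold changes were -0.35 (SE 0.10) for females and -0.46 (SE 0.094) for males. Trim9 lost its male call without Myc mouse 1 (-0.32) or 23 (-0.33) or 41 (-0.33) or KO mouse 3 (-0.28) or 4 (-0.27), and Trim46 its female call without Myc mouse 11 (-0.28).

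Trim63 (MuRF1), a muscle ligase of this group, was called higher in females. It had no read in the 3 Myc females and 22 reads in all in KO females, at 0, 0.123, 0.162 and 0.268 CPM, so that the groups met at 0. Against a floor of 3 counts over the female Myc libraries the KO mean of Trim63 was at least 4.15-fold higher. The call was lost without the mice above 1000 CPM of Ttr and when Myc and KO mice were fitted alone. In males Trim63 had means of 0.0768 CPM in Myc and 0.0828 CPM in KO mice.

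Among the other 19 members, Trim23, Trim37, Trim44 and Trim45 were called lower and Trim7, Trim47 and Trim69 higher in both sexes. Over all genes, 11.3% were called lower and 13.5% higher in both sexes. In females Trim37, a ligase of centrosomes and peroxisomes, had 327, 363 and 372 CPM with Myc and 150.1, 180.0, 254 and 263 CPM with KO. In males Trim37 had 351, 356, 366 and 370.2 CPM with Myc and 172, 231, 253 and 319 CPM with KO. All KO mice were below all Myc mice of their sex, and the log2 fold changes of Trim37 were -0.74 (SE 0.15) for females and -0.57 (SE 0.14) for males.

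Trim44 had the highest level per length of the family in Myc mice, at 49.97 CPM per kilobase of exon, against 31.6 for Trim37, 22.7 for Trim2 and 1.01 for Trim25. In females Trim44 had 346, 365 and 377 CPM with Myc and 258, 258, 293 and 296 CPM with KO. In males Trim44 had 355, 380.0, 386 and 399 CPM with Myc and 269, 273, 302 and 396 CPM with KO. The male groups of Trim44 overlapped, with 1 KO mouse inside the Myc range, and the log2 fold changes were -0.39 (SE 0.10) for females and -0.29 (SE 0.094) for males. Its male call was lost without KO mouse 3 (-0.24) or 4 (-0.23).

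The log2 fold changes of Trim23, which carries an ARF domain, were -0.42 (SE 0.14) for females and -0.37 (SE 0.13) for males. Those of Trim45 were -0.40 (SE 0.14) for females and -0.41 (SE 0.13) for males. Trim23 lost its female call without Myc mouse 11 (-0.34) and its male call without Myc mouse 1 (-0.30) or 41 (-0.35) or KO mouse 4 (-0.29) or 21 (-0.33). Trim45 lost its female call without KO mouse 13 (-0.37) or Myc mouse 31 (-0.32) and its male call without KO mouse 21 (-0.35), and its female call also without the mice above 1000 CPM of Ttr.

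In females Trim47 had 1.49, 1.7 and 2.37 CPM with Myc and 4.38, 5.26, 8.77 and 9.21 CPM with KO. In males Trim47 had 1.56, 1.94, 1.94 and 2.31 CPM with Myc and 4.49, 5.1, 6.46 and 8.94 CPM with KO. The groups of Trim47 were apart in both sexes, with log2 fold changes of 1.88 (SE 0.30) for females and 1.69 (SE 0.27) for males. Trim69 was near the limit of detection, with means of 0.0322 CPM in Myc and 0.319 CPM in KO females and of 0.0554 and 0.319 CPM for males, and lost its female call without Myc mouse 31 (2.39). Trim7, which binds glycogenin, had log2 fold changes of 0.42 (SE 0.16) for females and 0.57 (SE 0.15) for males and lost its female call without Myc mouse 11 (0.32) or 32 (0.39) or KO mouse 13 (0.38) or 14 (0.41) or 34 (0.41).

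Calls in 1 sex concerned 4 members, Trim16, Trim62 and Trim63 in females and Trim72 in males. Of all 28449 genes, 2790 were called in females only and 1952 in males only. Trim16 had log2 fold changes of 0.70 (SE 0.22) for females and 0.49 (SE 0.20) for males, and its female call was lost without KO mouse 14 (0.56) or Myc mouse 32 (0.63), and without the mice above 1000 CPM of Ttr (0.63). Trim62 had -0.54 (SE 0.16) for females and -0.28 (SE 0.14) for males, and Trim72 had 0.14 (SE 0.24) for females and 0.62 (SE 0.23) for males, both chosen after their values were seen. By edgeR the difference between the sexes was called for 0 of 62 members and 0% of all genes, and by DESeq2 for 0 members. At an unadjusted p under 0.05 there were 2 members (3.23%, against 5.52% of all genes), Trim10 (adjusted p = 0.87) and Trim63 (adjusted p = 0.724), each with no read in female Myc mice, of which Trim10 was chosen after its values were seen.

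What did replacement with H2A.Z.1 change? H2az1 and H2az2 were called in none of the 6 replacement groups against KO or Myc, with log2 fold changes of -0.24 to 0.44, so these gene counts do not show the vector's H2A.Z.1. The study's own mRNA checks reported higher H2afz (H2az1) with each replacement vector than in Myc controls. They also reported lower H2afv (H2az2) in every Cre group. Comparisons of replacement mice share KO or Myc mice with the one that proposed the family. Against KO, WT gave 3 higher (all genes 5.36%) and 17 lower (9.17%) for females. In males it gave 7 higher (all genes 7.44%) and 17 lower (12%). KA gave 5 higher (all genes 5.63%) and 18 lower (9.62%) for females and 4 higher (all genes 5.86%) and 15 lower (9.94%) for males. KQ gave 3 higher (all genes 5.36%) and 13 lower (7.63%) for females and 8 higher (all genes 8.72%) and 19 lower (12.7%) for males. Counts of members higher than KO moved with single mice. That for KA females was 0 without KA mouse 35 or 36 or KO mouse 14, 1 without KO mouse 13 and 3 without KA mouse 15. That for KQ males was 1 without KO mouse 4, 3 without KO mouse 3, 4 without KQ mouse 44 and 5 without KO mouse 21. The totals for KA and KQ females against KO were 15 without KO mouse 13 and 14 without KA mouse 35, and 6 without KQ mouse 37, and that for KQ males was 16 without KO mouse 4.

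Against Myc, WT gave 14 higher (all genes 5.87%) and 1 lower (3.52%) for females. In males it gave 16 higher (all genes 3.66%) and 0 lower (1.68%). KA gave 13 higher (all genes 4.42%) and 0 lower (3.23%) for females and 14 higher (all genes 5.15%) and 0 lower (2.74%) for males. KQ gave 12 higher (all genes 3.59%) and 2 lower (2.08%) for females and 13 higher (all genes 3.48%) and 2 lower (1.65%) for males. The count for KQ females rested on 1 mouse of 3, since 2 members in all were called without KQ mouse 17. That mouse was also above 1000 CPM of Ttr. The count for KQ females was 8 without Myc mouse 31 and 9 without Myc mouse 32. Without Myc mouse 31 the totals for WT and KA females were 9 and 8.

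The strongly raised genes lay between Myc and KO levels with every form of H2A.Z.1. 11 members, Trim5, Trim12a, Trim12c, Trim14, Trim21, Trim25, Trim30a, Trim30d, Trim34a, Trim34b and Trim56, were called lower than KO and higher than Myc in all 6 groups of sex and form (17.7% of members, against 1.25% of all genes), where the place of Trim25 carries no test because it proposed the family. The count rested on single females. It was 2 (Trim25 and Trim56) without KQ mouse 17, 4 without KQ mouse 37, 6 without Myc mouse 31 and 3 when the compared groups were fitted alone. Of the 10 cluster genes, 9 with WT, 10 with KA and 8 with KQ were called lower than KO in females, and 10, 8 and 9 in males. Called higher than Myc were 7 with each form in females, and 8, 9 and 9 in males. For KQ females the count against Myc was 0 without KQ mouse 17 and 4 without Myc mouse 31 or 32. Against KO it was 3 without KQ mouse 37. Over all genes, 7.63% to 12.7% were called lower than KO and 3.48% to 5.87% higher than Myc in these groups. The cluster's median log2 fold change was -1.79 to -1.32 against KO and 1.31 to 1.70 against Myc. Summed microglial markers were 801 to 1564 CPM in replacement females and 663 to 1734 CPM in replacement males, also above all Myc mice. All 8 T cell markers were called lower than KO in each of the 6 groups, with median log2 differences of -4.04 to -2.58 and sums of 5.96 to 14.9 CPM in replacement females and 4.6 to 24 CPM in replacement males. The part of these cells was not tested.

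Trim30a is an example of this order. It had 16.9 ± 1.86 CPM (SD, n = 4) in WT, 18.2 ± 3.97 CPM (n = 4) in KA and 19 ± 5.89 CPM (n = 3) in KQ females. In males it had 17.4 ± 6.18 CPM (n = 5) in WT, 19.9 ± 8.96 CPM (n = 4) in KA and 16.8 ± 10.1 CPM (n = 5) in KQ mice. No replacement mouse reached the KO range. For females the log2 fold changes against KO were -1.73 (SE 0.36, adjusted p = 0.00124) with WT, -1.62 (SE 0.36, adjusted p = 0.0025) with KA and -1.56 (SE 0.39, adjusted p = 0.00824) with KQ. For males they were -2.01 (SE 0.33, adjusted p = 4.17e-05) with WT, -1.81 (SE 0.36, adjusted p = 0.000601) with KA and -2.06 (SE 0.33, adjusted p = 3.04e-05) with KQ. Of these calls against KO, leaving out 1 mouse ended the KQ female call without KQ mouse 37 (-1.39).

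Trim26 overlapped Myc mice in all 6 groups of sex and form. Its means were 24.2, 23.2 and 22.1 CPM with WT, KA and KQ in females and 22.5, 24.2 and 25.2 CPM in males, against 22.2 and 22.5 CPM with Myc. For females the log2 fold changes against KO were -0.42 (SE 0.096, adjusted p = 0.00232) with WT, -0.48 (SE 0.096, adjusted p = 0.00104) with KA and -0.55 (SE 0.10, adjusted p = 0.0008) with KQ. For males they were -0.72 (SE 0.091, adjusted p = 5.26e-07) with WT, -0.62 (SE 0.096, adjusted p = 3.26e-05) with KA and -0.56 (SE 0.091, adjusted p = 1.48e-05) with KQ. Against Myc the log2 fold changes of Trim26 were -0.01 to 0.16, with adjusted p-values of 0.339 or more.

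Of the lowered genes, Trim46 was higher than KO in all 6 groups and Trim32 in 5. For females the log2 fold changes against KO were 0.28 (SE 0.094, adjusted p = 0.0364) with WT, 0.28 (SE 0.094, adjusted p = 0.0399) with KA and 0.41 (SE 0.10, adjusted p = 0.00555) with KQ. For males they were 0.39 (SE 0.090, adjusted p = 0.00145) with WT, 0.48 (SE 0.094, adjusted p = 0.000431) with KA and 0.31 (SE 0.090, adjusted p = 0.0114) with KQ. Of these calls against KO, leaving out 1 mouse ended the WT female call without KO mouse 13 (0.22) or 14 (0.23) or WT mouse 19 (0.29) or 39 (0.24) or 40 (0.27), the KA female call without KO mouse 13 (0.22) or 14 (0.22) or KA mouse 35 (0.23) or 36 (0.25), the KQ female call without KQ mouse 37 (0.38) and the KQ male call without KO mouse 3 (0.26) or 4 (0.27). The 5 called differences of Trim32 were 0.28 to 0.37, and leaving out 1 mouse ended the KA female call without KO mouse 13 (0.21) or 14 (0.23) or KA mouse 15 (0.29) or 35 (0.21) or 36 (0.28), the KQ female call without KO mouse 13 (0.24) or 14 (0.26) or KQ mouse 37 (0.27) or 38 (0.28), the KA male call without KO mouse 4 (0.28) and the KQ male call without KO mouse 4 (0.26). Of 8 neuronal markers, 4, 6 and 2 were called higher than KO in WT, KA and KQ females, and 3, 2 and 6 in males, and their part in the rises of Trim46, Trim32 and Trim2 was not tested.

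Trim2 was called higher than KO in 2 groups, with 0.38 (SE 0.12, adjusted p = 0.0273) for KA females and 0.34 (SE 0.11, adjusted p = 0.03) for KQ males. WT females had 343, 345, 405 and 486 CPM of Trim2, all below every Myc female, with -0.41 (SE 0.13, adjusted p = 0.0396) against Myc. WT males had 441, 448, 458, 459 and 496 CPM. Leaving out 1 mouse ended the KA female call without KO mouse 13 (0.34) or 14 (0.35) or KA mouse 35 (0.24) or 36 (0.38), the KQ male call without KO mouse 3 (0.32) or 4 (0.27) or KQ mouse 8 (0.30) or 44 (0.28) and the WT female call without Myc mouse 11 (-0.37) or 31 (-0.41) or 32 (-0.44) or WT mouse 19 (-0.35) or 20 (-0.34) or 39 (-0.42). Trim8, Trim9 and Trim45 were called higher than KO in none of the 6 groups.

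**Figure D5:**
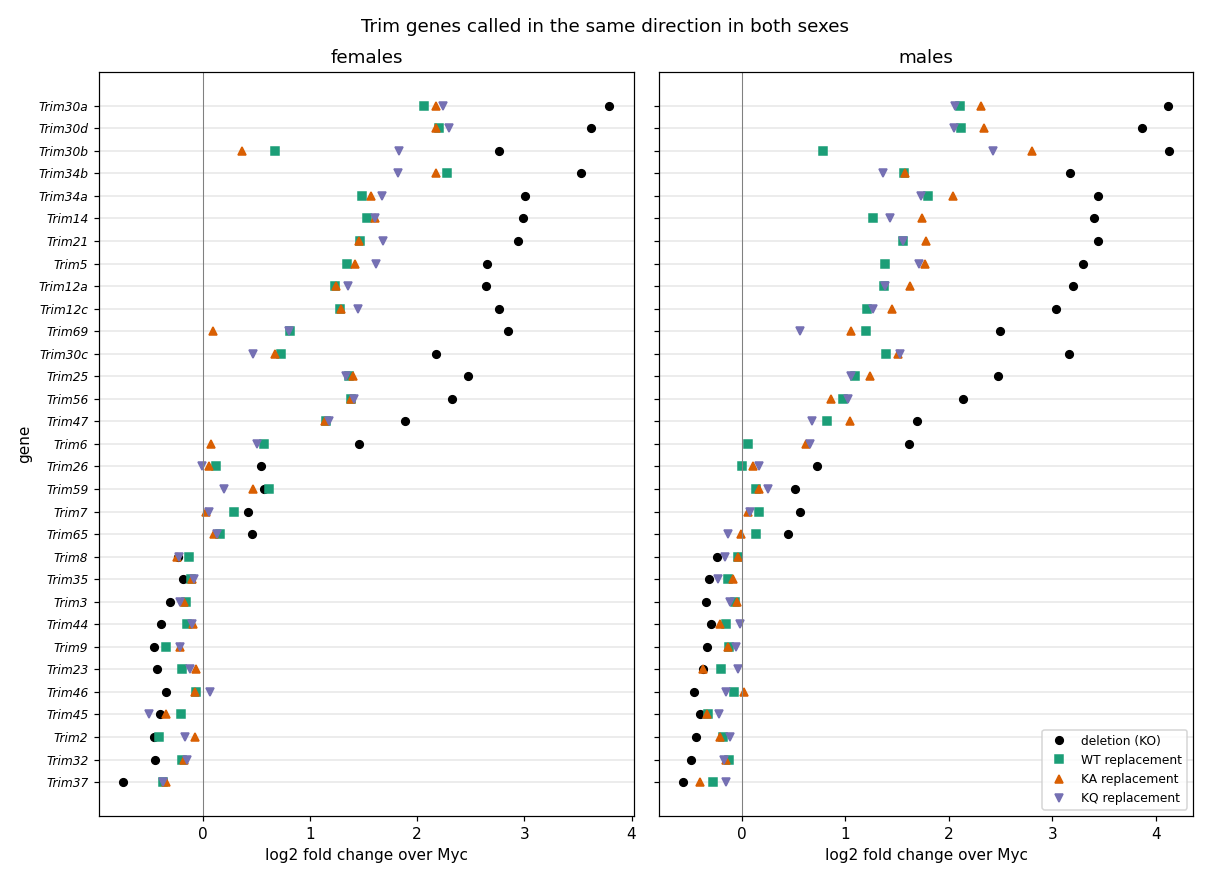
Log2 fold change over Myc mice (x axis) of deletion and of replacement with WT, KA and KQ (symbols) for the 31 Trim genes called in 1 direction in both sexes, in 1 panel per sex. Replacement symbols of the strongly raised genes lie between 0 and the deletion symbol, and all 4 groups of a sex are compared with the same Myc mice.

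KA and KQ were compared with each other to ask whether acetylation of H2A.Z.1 mattered for these genes. edgeR called 0 of 62 members and 0% of all genes in either sex, and DESeq2 called 0 members. At an unadjusted p under 0.05 there was 1 member in females (1.61%, against 2.09% of all genes) and 7 in males (11.3%, against 10.5%), shares near those of all genes. The female member was Trim30b, with -1.46 (SE 0.72, adjusted p = 1), and the male members are named after their values were seen. Trim28 had 104, 105, 106 and 115 CPM in KA and 85.9, 88.1, 88.4, 99.4 and 104 CPM in KQ males, with the lowest KA mouse just above the highest KQ mouse, and a difference of 0.21 (SE 0.075, adjusted p = 0.388). The other male members were Trim27 and Trim35, with positive KA minus KQ differences, and Trim23, Trim33, Trim44 and Trim66, with negative ones, over a range of -0.40 to 0.24. The adjusted p-values of these 7 ran from 0.384 to 0.45, and none passes 0.05.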

How the data were processed

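RNA-seq of hippocampus from 40 mice was analysed in 10 groups of sex and virus, taken from the sample labels. Per the study's methods and processing notes, the authors checked reads with FastQC 0.11.9, mapped them to GRCm39, used featureCounts and deposited raw counts per gene. A table that the authors normalized with DESeq2 1.38.3 was deposited as well and not used. Here the 28449 of 40853 genes whose counts summed to 20 or more were tested with edgeR 4.0.16 (R 4.3.3), with TMM scaling, a mean for each group over all 40 mice and robust quasi-likelihood tests, adjusted by the Benjamini and Hochberg method over every gene tested. The code was tested on simulated data. Members and lists were chosen with earlier results of these data known.

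Named members are Trim25, up to 12 called higher and 12 called lower in both sexes with a mean of at least 1 CPM, the most abundant of each role group, and those called against most of their group. Of pathway lists up to 3 genes with the smallest p could be named, with H2az1 and H2az2. Isg15, Traf3 and the members marked so in the text were chosen after their values were seen.

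Alternatives were DESeq2 1.42.0, its size factors in edgeR, filterByExpr, testing every gene above 0 counts, fitting the compared groups alone, blocks of mouse numbers (up to 20, 21 to 40 and above 40) as covariate, no mice above 1000 CPM of Ttr, and each mouse left out. Gene coordinates are GENCODE M39 on GRCm39. With 24342921 to 45982772 counts per library, genes under 1 CPM rest on few reads. In the main fit, p-values set a group difference against the spread between mice within groups, estimated over all groups.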

Additional observations from a re-analysis of the deposited data

Results flagged for a closer look

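A mouse stood apart from the others of its group, by its gap relative to the group's range, in 5 of 272 groups checked for 34 named members. Chance gives such a flag in about 1 of 20 groups. Trim25 was highest in male WT mouse 10, at 17.2 CPM against 11.5 to 12.6 CPM in the others. Trim21 was highest in male KQ mouse 8, at 11.97 CPM against 4.19 to 6.34 CPM in the others. Trim12c was highest in male KQ mouse 8, at 19.2 CPM against 7.32 to 10.6 CPM in the others. Trim45 was lowest in male KA mouse 26, at 5.61 CPM against 6.39 to 6.54 CPM in the others. Trim63 was highest in female KA mouse 36, at 0.0438 CPM against 0 in the others. Trim63 had 87 reads over all mice, so few reads set this flag, and the rate of 1 of 20 does not apply to it. Both flags of male KQ mice come from the same mouse, and no explanation was tested.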

How the results depend on the processing

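No paired analysis was possible because mouse numbers are unique in the series and groups share none. Fitting the compared groups alone, with fewer mice, gave 15 called members for KA against KO females (23 otherwise), 8 for KQ against Myc females (14), 7 for KQ against KO females (16) and 17 for KQ against KO males (27). Without mice above 1000 CPM of Ttr, among them KQ mouse 17, KQ against Myc females had 2. Leaving out 1 mouse gave 8 to 14 for KA and 9 to 17 for WT against Myc females (13 and 15 otherwise), 14 to 26 for KA against KO females, 2 to 14 for KQ against Myc females, and 6 to 20 and 16 to 29 for KQ against KO females and males. The other totals of both directions stayed within 1.5 times in the settings run. Counts in 1 direction moved more. With the compared groups fitted alone, members higher than KO were 0 in KQ males, 1 in KA females and 4 in WT males (8, 5 and 7 otherwise), and members lowered by deletion were 6 in females and 6 in males (12 and 11). Of 3945 alternative values of single genes, 3587 kept direction and call, 358 lost the call and 0 reversed. In females 17 of 22 raised and 5 of 11 lowered named members kept their deletion call whichever 1 mouse was left out, and in males 19 of 20 and 6 of 11. Members under 1 CPM are limited by depth.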
